A study of Homo sapiens with 12 samples.

Results

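The genes described here are 58 factors of ribosome biogenesis and the nucleolus, followed in HCT116 cells over a time course of reduced oxygen. They were chosen by name with earlier results of these data known, so their counts set against all genes are a description. All 58 were found among the 56537 gene names with at least 1 transcript matching a reference transcript or sharing a splice junction with one. HCT116 is a widely used line of human colorectal cancer cells. Cells were kept at 21% O2 (0 h) or held at 1% O2 for 1, 2 or 24 h, and each time point was represented by 3 libraries labelled as replicates, 12 in all, made from polyadenylated RNA with a strand-specific kit. All groups were the same unmodified line in the same medium, and hypoxia began 24 h after plating. Whether the 0 h and 24 h cells were harvested at the same time after plating is not given in the sources used here, so at 24 h the effects of hypoxia and of longer culture cannot be told apart. Expression is given in FPKM, the fragments assigned to a transcript divided by its length in kilobases and by the library's mapped fragments in units of 1000000, summed over the transcripts that carry a gene's name. In such bulk values, fewer cells expressing a gene and less of its RNA per cell cannot be told apart.

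A ribosome is built in the nucleolus around a single long precursor RNA that RNA polymerase I copies from the ribosomal DNA repeats. Small nucleolar ribonucleoproteins (snoRNPs) methylate and pseudouridylate this precursor, and a large assembly called the SSU processome folds and cuts its small-subunit part. Other factors then carry the pre-40S and pre-60S particles through cleavage, protein loading and export. The genes below are ordered by these roles. Cells express much of this set more when they grow, and E-box motifs near the start sites, which MYC and related factors can bind, are a known feature of it.

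The motif can be seen in the sequences around the start sites of 5 of the genes described in most detail. RefSeq promoters of the GRCh38.p14 build, each with 250 bases before and 50 bases from the gene start on, were matched by symbol for 51 of the 58 genes. NOP58, RRP12, NOLC1, BOP1, RRP1B, DDX18 and RRS1 had no entry. The E-box CACGTG is its own reverse complement, so 1 search covers both strands. The windows below run 5′ to 3′ on the gene's strand, with the motif in capitals and 12 bases on either side, and they show genes that fell strongly at 24 h (PNO1, MRTO4, BYSL) and genes that were not called by the rule given below, one of them lower by less (GNL2) and one that did not pass the test (FBL).
PNO1, chr2:68157885-68157914, plus strand: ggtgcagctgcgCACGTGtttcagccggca
MRTO4, chr1:19251807-19251836, plus strand: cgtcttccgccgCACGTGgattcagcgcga
BYSL, chr6:41921515-41921544, plus strand: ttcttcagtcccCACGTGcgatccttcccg
GNL2, chr1:37595917-37595946, minus strand: gtacgtcgtgcaCACGTGgtccggcgtggt
FBL, chr19:39846356-39846385, minus strand: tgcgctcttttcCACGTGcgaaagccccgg
With the first base of the gene counted as 0, the motif began at base 9 in PNO1, 14 in MRTO4, 28 in BYSL, 3 in GNL2 and 6 in FBL, so in each it lay just downstream of the annotated start. UTP14A, also described in detail and not shown here, held the motif upstream of its start, beginning at base -241.

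CACGTG was present in 17 of the 51 matched promoters (33.3%), against 2025 of all 27195 promoters in the table (7.45%) and 972 of the 9440 matched genes that entered the expression test (10.3%). In 13 of the 17 no copy lay wholly before the start (25.5% of the 51 promoters), which was the case in 0.949% of all promoters and 1.13% of the genes tested. RRP9 was 1 of these 13, with a copy that overlapped the start. The motif was found in 13 of the 37 genes called lower at 24 h that had a promoter entry (35.1%) and in 4 of the 14 that were not called (28.6%). Of the 916 matched genes of any function called lower at 24 h, 154 held it (16.8%). The shorter motif ACGTG, searched with its reverse complement CACGT and contained in every CACGTG, was present in 47.1% of the 51 promoters, against 21.6% of all promoters and 27.1% of the genes tested. It was found in 45.9% of the genes called lower and in 50% of those not called, so the order of these groups was opposite to that for CACGTG. These are matches of letters in a window of fixed length and show nothing about binding.

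All 8 genes checked as known hypoxia targets were higher at 24 h (median log2 fold change 3.39), and 2 of them passed an adjusted p of 0.05 at 2 h. The epithelial markers KRT8, KRT18, KRT19 and EPCAM were between 213.5 and 1191 FPKM in every library and CDH1 was between 6.06 and 27.4, while VIL1 was at most 0.0481 FPKM. KRT19 and CDH1 were higher at 24 h, by 0.99 and 1.76 on the log2 scale. Of 9 markers of fibroblasts, endothelium and leukocytes, PECAM1 was 0 in all libraries and only COL1A1 exceeded 0.5 FPKM. The sum of the 9 ranged from 1.85 to 2.17 FPKM at 0 h and from 5.81 to 8.84 FPKM at 24 h, almost all of it COL1A1, and its part in the results below was not tested. Transcripts shorter than 300 bases carried between 57.0% and 87.7% of the summed FPKM of a library, which matters for scaling and is taken up at the end. Read counts were not used here, so no counting error is given for the FPKM values and the spread between replicates is the measure of precision.

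At 24 h of 1% O2 most of the ribosome biogenesis genes were expressed at well below their 0 h level. Changes were fitted with limma on log2(FPKM + 0.5) over 16680 genes, a scale that understates the change of genes with low FPKM, and a gene was called at an adjusted p under 0.01 and an absolute log2 fold change above 1. By this rule 44 of the 58 were lower at 24 h and 0 were higher, against 9.51% of all genes lower and 8.76% higher. At an adjusted p under 0.05 with no limit on size, 56 were lower, against 30.3% of all genes, and the exceptions were FBL and NOB1. The median log2 fold change of the 58 was -1.31 (quartiles -1.78 and -1.02), and that of all genes was -0.05 (quartiles -0.55 and 0.46). Changes ran from -2.99 for GPATCH4 to 0.19 for NOB1, and 10 genes fell by more than 2 on the log2 scale, which is 4-fold. In 56 genes the highest 24 h library lay below the lowest 0 h library (32.8% of all genes), and in NOB1 alone the 24 h libraries lay wholly above (27.6% of all genes). The medians for same-numbered libraries were -1.51, -1.38 and -1.14, with 57 of 58 genes lower each time. Across the 58 genes the change bore little relation to the level at 0 h (Spearman's rho 0.147, a description across genes that share the same 12 libraries).

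**Figure D1:**
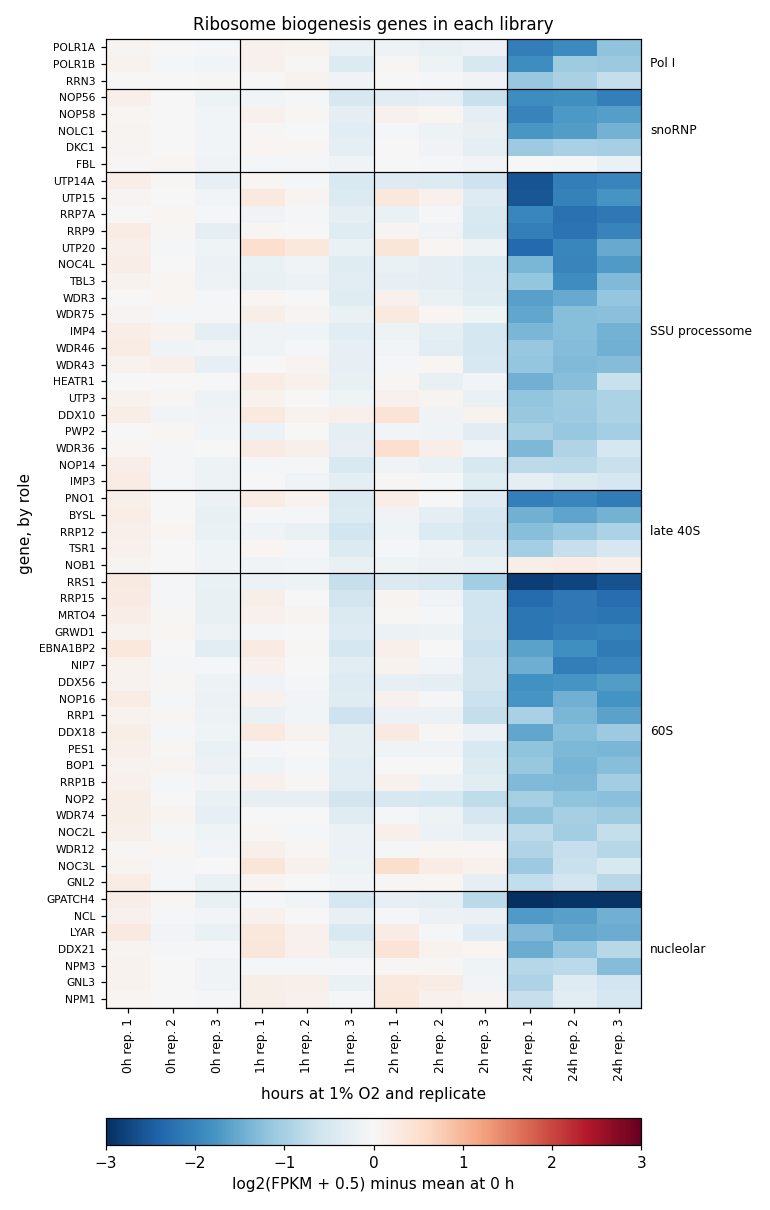
Expression of the 58 genes in each of the 12 libraries, as log2(FPKM + 0.5) minus the gene's mean at 0 h; rows are genes ordered by role and by change at 24 h, columns are hours at 1% O2 and replicate number, and blue is lower. The 3 libraries at 24 h are blue in 56 rows, FBL is near white, NOB1 is pale red, and the third library at 1 h and at 2 h is bluer than the other two of its time across most rows.

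Among the genes for RNA polymerase I transcription, 2 of 3 were called lower, with a median log2 fold change of -1.34. POLR1A encodes the largest subunit of the polymerase. Its FPKM was 16.9, 15.9 and 15.4 at 0 h and 3.45, 3.90 and 6.65 at 24 h. The groups did not overlap, and the log2 fold change was -1.73 (SE 0.18, adjusted p = 1.1e-05 by limma). POLR1B, the second largest subunit, had 34.6, 31.3 and 30.3 FPKM at 0 h and 8.47, 15.1 and 14.6 FPKM at 24 h. It was lower in every 24 h library, by 1.34 on average (log2 fold change -1.34, SE 0.21, adjusted p = 0.00021). RRN3, the initiation factor TIF-IA that brings the polymerase to its promoter, fell less, from 50.2 ± 1.11 to 25.9 ± 4.0 FPKM (SD, n = 3). Its log2 fold change of -0.95 (adjusted p = 1.7e-05) was just short of the 2-fold limit.

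The 5 snoRNP genes split into 4 that were called lower and FBL, which was not, with a median log2 fold change of -1.61. NOP56 and NOP58 are the paired core proteins of box C/D snoRNPs. NOP56 had 582, 518 and 467 FPKM at 0 h and 142, 144 and 126 FPKM at 24 h. NOP58 had 187, 182 and 170 FPKM at 0 h and 44.4, 54.2 and 56.6 FPKM at 24 h. Both kept under 30% of their 0 h mean, with log2 fold changes of -1.92 (adjusted p = 8.8e-07) and -1.79 (adjusted p = 1.1e-06). FBL encodes fibrillarin, the methyltransferase that sits on the same core. Its FPKM was 383, 390 and 345 at 0 h and 372, 356 and 322 at 24 h. The groups overlapped, and the log2 fold change of -0.09 (SE 0.09) did not pass the test (adjusted p = 0.39). With TPM over all transcripts it was -0.96 (adjusted p = 0.089), where the median of all genes was -0.78. The ratio of FBL to NOP56 within a library, which does not depend on scaling between libraries, went from 0.716 ± 0.051 to 2.55 ± 0.075 by 24 h (SD, n = 3), with no overlap (two-sided exact permutation test, p = 0.1, the smallest that 3 libraries against 3 can give). DKC1, the pseudouridine synthase dyskerin of box H/ACA snoRNPs, fell from 114 ± 6.48 to 55.9 ± 2.25 FPKM (SD, n = 3; log2 fold change -1.02, adjusted p = 1e-05), and NOLC1, the chaperone Nopp140, from 274 ± 16.5 to 90.1 ± 11.1 FPKM (log2 fold change -1.61, adjusted p = 9.9e-07).

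NOP56 and TBL3 had the highest noncoding shares at 0 h among the genes in which the share was measured (85.8% and 85.9% of typed FPKM). The NOP56 locus also holds several snoRNA genes, which were not part of its sum. Its most abundant transcript was one of 1143 bases whose coding sequence the annotation does not define (ENST00000492135), with 223 ± 29.3 FPKM at 0 h and 43.6 ± 10.3 FPKM at 24 h (SD, n = 3). The full-length coding transcript of 2400 bases (ENST00000329276) had 54.6 ± 3.8 and 13.4 ± 1.01 FPKM. Both fell, and noncoding transcripts held 85.8% of the gene's typed FPKM at both times. Summed over coding transcripts alone, the log2 fold change of NOP56 was -1.91.

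**Figure D2:**
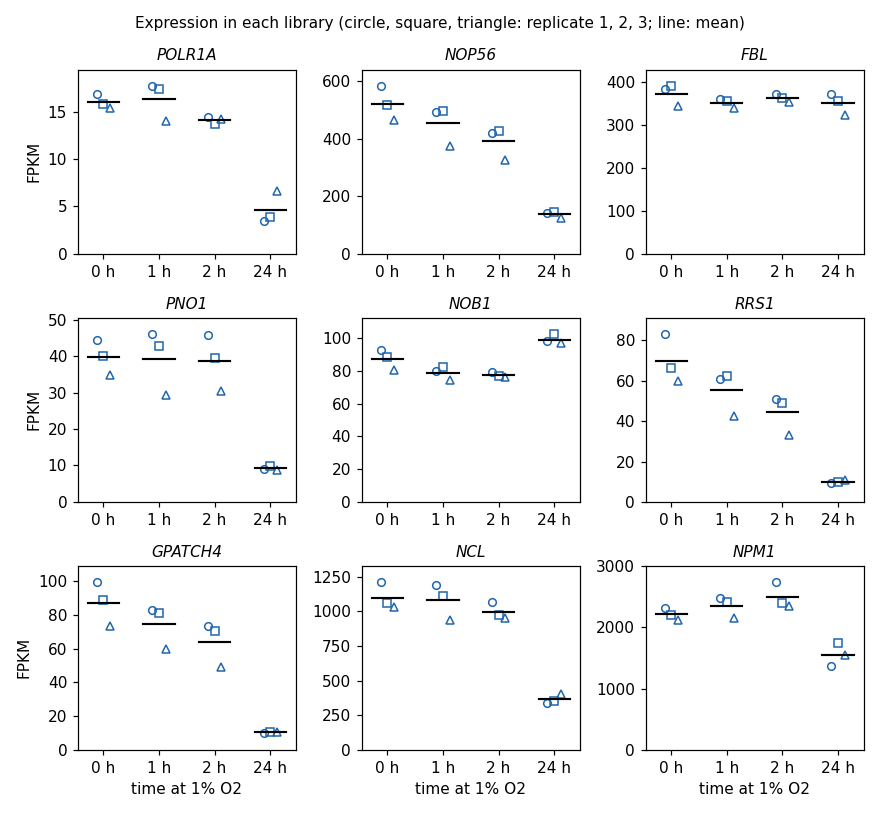
FPKM of 9 genes in each library, one panel per gene with its own axis starting at 0; the horizontal axis is time at 1% O2, symbols mark replicate 1, 2 and 3, and lines mark the mean of 3. POLR1A, NOP56, PNO1, RRS1, GPATCH4 and NCL are well below their 0 h values in all 3 libraries at 24 h, NPM1 is lower by less, FBL overlaps with 0 h, and NOB1 is above it.

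Of the 19 SSU processome genes, 16 were called lower and all 19 passed an adjusted p of 0.05 in the same direction, with a median log2 fold change of -1.35. UTP14A, which is needed for early cleavage of the precursor, had 35.5, 31.4 and 25.9 FPKM at 0 h and 4.72, 6.91 and 7.35 FPKM at 24 h. UTP15, of the subcomplex that first binds the growing precursor, had 34.4, 32.1 and 30.2 FPKM at 0 h and 5.05, 7.46 and 9.16 FPKM at 24 h. RRP7A had 31.2, 32.8 and 30.1 FPKM at 0 h and 7.74, 6.30 and 6.65 FPKM at 24 h. In all 3 genes the 24 h libraries lay far below those at 0 h, and the log2 fold changes were -2.21, -2.12 and -2.11 (adjusted p = 1.6e-06, 1.3e-05 and 2e-07). RRP9, which binds the U3 snoRNA, fell from 60.8 ± 10.3 to 13.8 ± 1.06 FPKM (SD, n = 3; log2 fold change -2.09), and UTP20, the least abundant of all 58 at 0 h, fell from 10.0 ± 1.03 to 2.33 ± 0.81 FPKM (log2 fold change -1.93). The remaining called genes of this group lay between -1.68 (NOC4L) and -1.05 (PWP2). IMP4 and IMP3 are further proteins of the U3 particle. IMP4 fell from 118 ± 19.8 to 45.4 ± 2.1 FPKM (log2 fold change -1.35), and IMP3 had 56.2, 46.2 and 43.9 FPKM at 0 h and 39.9, 36.0 and 33.9 FPKM at 24 h. IMP3 was the smallest change of the group, with no overlap between the times but a log2 fold change of only -0.40 (adjusted p = 0.021). It missed an adjusted p of 0.05 without 0 h replicate 1 (0.098), 24 h replicate 2 (0.053) or 24 h replicate 3 (0.063).

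The late 40S genes spanned a wide range, with 3 of 5 called lower and a median of -1.12. NOB1 is the endonuclease that makes the mature 3′ end of 18S rRNA, and PNO1 is its partner on the pre-40S particle. PNO1 had 44.4, 40.1 and 34.9 FPKM at 0 h and 9.15, 9.83 and 8.81 FPKM at 24 h. NOB1 had 92.6, 88.2 and 80.4 FPKM at 0 h and 97.9, 102 and 96.7 FPKM at 24 h. PNO1 kept 23.3% of its 0 h mean (log2 fold change -2.04, adjusted p = 2.7e-06), and the 24 h values of NOB1 lay above all its 0 h values without passing the test (log2 fold change 0.19, SE 0.08, adjusted p = 0.071). NOB1 passed an adjusted p of 0.05, as higher, with the replicate number as a block (0.036) and with median-of-ratios scaling (0.019), and with TPM over all transcripts its log2 fold change was -0.68 (adjusted p = 0.22). The ratio of NOB1 to PNO1 was 2.2 ± 0.11 at 0 h, 2.06 ± 0.40 at 2 h and 10.7 ± 0.29 at 24 h (SD, n = 3; 24 h against 0 h, two-sided exact permutation test, p = 0.1, the smallest possible). BYSL, the gene of bystin, fell from 47.2 ± 6.93 to 16.5 ± 1.03 FPKM (log2 fold change -1.48, adjusted p = 4.8e-06) and RRP12, a factor for the export of pre-ribosomes, from 22.6 ± 2.84 to 10.1 ± 1.18 FPKM (log2 fold change -1.12, adjusted p = 7.1e-05). TSR1 was lower by 0.74 (log2 fold change -0.74, adjusted p = 0.0016), short of the 2-fold limit.

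Of the 19 genes for the 60S subunit, 15 were called lower and all 19 were lower at an adjusted p of 0.05, with a median of -1.31. RRS1, which helps to bring the 5S ribonucleoprotein into the pre-60S particle, had 83.0, 66.3 and 59.7 FPKM at 0 h and 9.33, 9.85 and 10.9 FPKM at 24 h. Its log2 fold change of -2.72 (SE 0.19, adjusted p = 5.8e-07) was the second largest fall of the 58 and ranked 11 from the bottom of the 16680 genes. RRP15 fell from 79.5 ± 13.4 to 16.2 ± 1.02 FPKM and MRTO4, the nucleolar relative of a ribosomal stalk protein, from 97.6 ± 13.9 to 21.2 ± 0.364 FPKM (SD, n = 3), with log2 fold changes of -2.25 (adjusted p = 3.3e-06) and -2.17 (adjusted p = 2.3e-06). The value of RRP15 rested on a transcript of 976 bases that shares a junction with the reference (90.3, 74.2 and 64.3 FPKM at 0 h), and over reference-matching transcripts alone its log2 fold change was -1.498. MRTO4 was nearly the same in the 3 libraries at 24 h, at 21.3, 21.6 and 20.8 FPKM. Of the 3 genes of the PeBoW complex, which acts on the internal spacer of the precursor, PES1 and BOP1 fell by 1.31 and 1.27 on the log2 scale, and WDR12 fell from 74.3 ± 4.0 to 42.2 ± 3.38 FPKM (log2 fold change -0.81, adjusted p = 3.2e-05). RRP1 and its relative RRP1B had log2 fold changes of -1.31 and -1.24. Their ratio, RRP1B over RRP1, was 1.16, 1.08 and 1.20 at 0 h and spread to 0.888, 1.17 and 1.71 at 24 h, so these libraries do not settle whether the pair moved equally. GNL2, a nucleolar GTPase, was the smallest change of the group, from 87.1 ± 13.0 to 52.9 ± 4.89 FPKM (log2 fold change -0.71, adjusted p = 0.0005). NOC2L, WDR12, NOC3L and GNL2 were the 4 that did not reach the 2-fold limit.

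The 7 remaining nucleolar genes held both the largest fall of all and some of the smallest, and 4 were called lower (median -1.16). GPATCH4, a G-patch protein of the nucleolus, had 99.1, 88.7 and 73.6 FPKM at 0 h and 9.89, 10.8 and 10.8 FPKM at 24 h. At 24 h 12% of its 0 h mean remained, the log2 fold change was -2.99 (SE 0.17, adjusted p = 1.8e-07), and it ranked 6 from the bottom of all genes tested. NCL encodes nucleolin and NPM1 nucleophosmin, the abundant RNA-binding and chaperone proteins of the nucleolus, and these were the most highly expressed of the 58. NCL had 1208, 1060 and 1030 FPKM at 0 h and 338, 355 and 403 FPKM at 24 h. NPM1 had 2307, 2195 and 2118 FPKM at 0 h and 1366, 1735 and 1543 FPKM at 24 h. Neither overlapped between the times, but NCL was called (log2 fold change -1.59, adjusted p = 8.3e-07) and NPM1 was not (log2 fold change -0.52, adjusted p = 0.0023). The NPM1 to NCL ratio rose from 2.01 ± 0.089 to 4.26 ± 0.56 (SD, n = 3; exact permutation test, p = 0.1, the smallest possible).

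The value for NPM1 rested in part on a short transcript. A retained-intron model of 268 bases (ENST00000523339) had 827 ± 84.7 FPKM at 0 h and 686 ± 80.8 FPKM at 24 h (SD, n = 3) and carried up to 46.0% of the gene's FPKM. Summed over coding transcripts alone, the log2 fold change of NPM1 was -0.67, still under the 2-fold limit. NPM1 also has near-identical processed pseudogenes, so its level is uncertain to the extent that the authors' assignment divided reads among them. LYAR fell from 113 ± 19.7 to 40.7 ± 3.20 FPKM (log2 fold change -1.45, adjusted p = 7.5e-05), and DDX21, a nucleolar RNA helicase, from 144 ± 7.73 to 65.2 ± 14.7 FPKM (log2 fold change -1.16). GNL3, the gene of nucleostemin, fell by 0.63 (log2 fold change -0.63, adjusted p = 0.0037) and NPM3 by 0.99 (log2 fold change -0.99, adjusted p = 3.5e-05), both short of the limit.

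**Figure D3:**
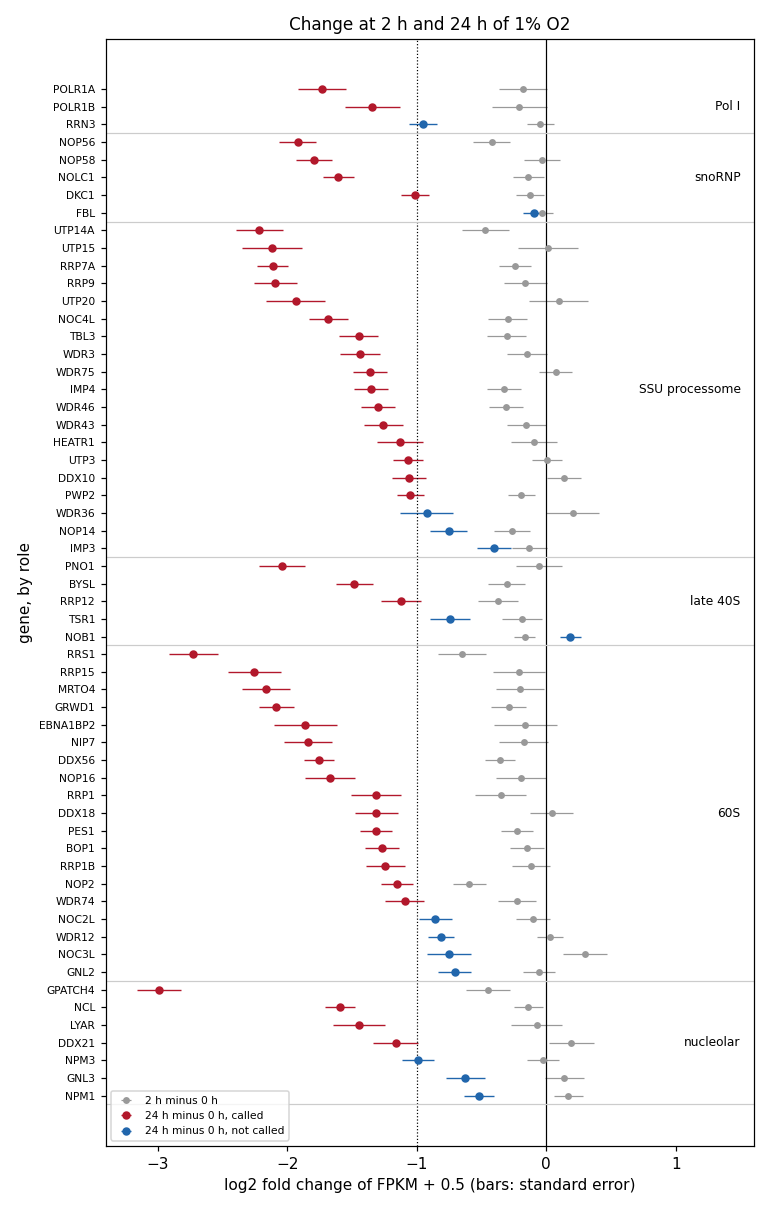
Log2 fold change of FPKM + 0.5 with its standard error for the 58 genes, ordered by role; grey points are 2 h minus 0 h, red points are 24 h minus 0 h for genes called lower, blue points are 24 h minus 0 h for genes not called, and the dotted line marks -1. The 44 red points lie left of the dotted line, the 14 blue points right of it, and only NOB1 is right of 0 at 24 h.

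The early time points showed no comparable change. At 1 h none of the 58 genes was called by limma (0% of all genes lower and 0.006% higher), 2 had libraries wholly below 0 h (7.33% of all genes) and 0 wholly above (6.36%), 1 had an unadjusted p under 0.05 (NOP2, against 4.61% of all genes), and the median log2 fold change was -0.08. At 2 h again none was called (0% of all genes lower and 0.018% higher) from the FPKM as deposited, 9 had an unadjusted p under 0.05, all of them lower (15.3% of all genes in either direction), and the median was -0.16 against -0.02 for all genes. In 12 genes the 2 h libraries lay wholly below those at 0 h (13.1% of all genes) and in 2 wholly above (12.2%). The lowest values at 2 h were those of RRS1 (log2 fold change -0.65, adjusted p = 0.16) and NOP2, a methyltransferase of 28S rRNA (-0.59, adjusted p = 0.079). At the other end stood NOC3L (0.30, adjusted p = 0.43) and WDR36 (0.21, adjusted p = 0.66). GPATCH4 had 73.2, 70.2 and 49.0 FPKM at 2 h, all below its 0 h values (log2 fold change -0.45, adjusted p = 0.25), and NPM1 had 2728, 2399 and 2341, all above its own (0.17, adjusted p = 0.50).

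The libraries of replicate 3 stood lower than the others at the early times. Relative to the mean at 0 h, the median of the 58 genes was 0.06, 0.00 and -0.33 in the 3 libraries at 1 h and 0.00, -0.10 and -0.38 at 2 h on the log2 scale. The 0 h libraries were themselves at 0.12, 0.00 and -0.13, so replicate 3 was the lowest at each of the first 3 time points. The medians over all genes in these 9 libraries stayed between -0.03 and 0.01. Compared within replicate numbers, the median change from 0 h to 2 h was -0.13, -0.12 and -0.23, with 40, 42 and 51 of the 58 genes lower, and that from 0 h to 1 h was -0.08, -0.01 and -0.19, with 36, 30 and 52 lower. When a single library was left out, which breaks these pairs, the values moved. The median change at 2 h ran from -0.24 without 2 h replicate 1 to -0.02 without 2 h replicate 3, and that at 1 h from -0.16 without 1 h replicate 1 to 0.03 without 1 h replicate 3. Without a 0 h library it ran from -0.21 (replicate 3) to -0.10 (replicate 1) at 2 h and from -0.15 to -0.01 at 1 h. Same-numbered libraries at 0 h and 2 h deviated together from their group means, and with the replicate number as a block NOP56 and NOP2 were lower at 2 h at an adjusted p under 0.05 (log2 fold changes -0.42 and -0.59, adjusted p = 0.036 and 0.011), where 0 of the 58 were lower without the block (0.0959% of all genes). With the block 0.767% of all genes were lower by that rule.

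Between 2 h and 24 h, 39 of the 58 genes were called lower (7.28% of all genes) and 0 higher (7.44%), with a median log2 fold change of -1.14. With TPM over all transcripts 8 were called lower (0.585% of all genes, with 3.75% higher). At an adjusted p under 0.05, 55 were lower (27.4% of all genes) and NOB1 was higher (23.2%), from 77.4 FPKM on average at 2 h to 99.0 FPKM at 24 h (log2 fold change 0.35). In 55 genes the libraries at 24 h lay wholly below those at 2 h, against 28.9% of all genes. The comparison shares its 24 h libraries with the one against 0 h. GPATCH4 (-2.54), UTP15 (-2.13), RRS1 (-2.07) and RRP15 (-2.04) fell most. NOP2 fell by 0.56 in this interval (log2 fold change -0.56), close to its change at 2 h.

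The share of each gene's expression that fell on noncoding transcripts was also followed, since switching to such transcripts was a question of the study. Transcripts took their type from GENCODE by the identifier of the nearest reference. Those whose coding sequence the annotation does not define were counted as noncoding, with retained-intron transcripts and other noncoding types. The 58 genes had 618 transcripts, of which 545 could be typed, 274 as coding and 271 as noncoding (132 of them with a retained intron). WDR36 and NOP16 rested almost wholly on transcripts without a type. In 46 genes both classes were expressed, and the log2 ratio of noncoding to coding FPKM, with 0.5 added to each, was fitted with limma. At 24 h it shifted toward noncoding in 6 genes at an adjusted p under 0.05 (7.57% of all 6774 genes tested) and toward coding in 1 (3.25%). In each of the 6 the mean noncoding FPKM fell as well, and the coding FPKM fell by a larger factor. Noncoding FPKM went from 7.05 to 4.63 in EBNA1BP2, from 6.75 to 2.46 in RRP7A and from 69.9 to 23.0 in DDX56. The noncoding share of UTP15 was 0.738%, 4.34% and 2.27% at 0 h and 6.80%, 9.43% and 9.71% at 24 h, and that of EBNA1BP2, a nucleolar protein of the 60S pathway, was 3.20%, 4.01% and 3.76% at 0 h and 6.90%, 8.42% and 11.7% at 24 h. Neither overlapped between the times (adjusted p = 0.0054 and 0.011). RRP7A rose from 21.5% to 35.9% on average, NOP2 from 9.67% to 15.8%, and DDX56 from 81.9% to 92.4%, while BYSL fell from 25.2% to 11.6%. The most abundant DDX56 transcript had no defined coding sequence, and retained-intron transcripts held 1.67 of the gene's 69.9 noncoding FPKM at 0 h. In RRP7A the share was 27.5%, 25.9% and 32.0% at 1 h and 30.4%, 37.0% and 35.4% at 2 h, already above all 0 h libraries. GRWD1 had shares of 1.89%, 1.38% and 0.66% at 0 h and 7.97%, 2.95% and 0.967% at 24 h, which overlapped. It lost the call whichever library was left out (adjusted p = 0.063 to 0.099, log2 change of the ratio 1.43 to 1.94), except without 24 h replicate 3 (adjusted p = 0.034). UTP15 passed in all 13 other settings tried and EBNA1BP2 in 12, and the other 5 lost the call in several. The count depended on the constant added, being 3 genes with 0.1 and 16 with 1. With a constant the ratio rises where coding FPKM falls and noncoding FPKM is near the constant, as in LYAR, whose ratio rose by 0.62 while its share went from 0.462% to 0.184%. UTP15 and GRWD1 were also near the constant, with mean noncoding FPKM of 0.78 and 0.61 at 0 h and 0.65 and 0.39 at 24 h.

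**Figure D4:**
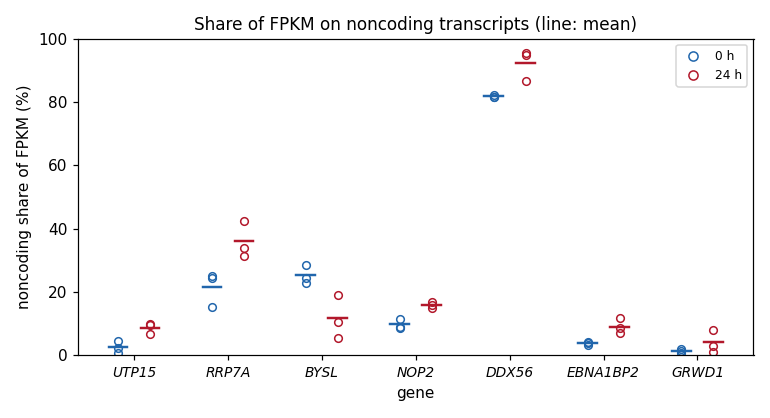
Share of FPKM on noncoding transcripts, in percent of the typed FPKM of each gene, for the 7 genes whose ratio changed; circles are libraries at 0 h (blue) and 24 h (red), and lines are means of 3. UTP15 and EBNA1BP2 rise without overlap from low shares, DDX56 is above 80% throughout, and BYSL is the one gene that falls.

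Other genes of the pathway moved in the same direction. Of 83 further ribosome biogenesis genes, 82 were tested and 51 were called lower at 24 h, against 9.51% of all genes. At an adjusted p of 0.05, 77 were lower, against 30.3% of all genes, and the median log2 fold change was -1.09. NOL6 (-2.34), URB2 (-2.33) and FTSJ3 (-2.08) fell most among those looked up by name, and UBTF, the factor that keeps ribosomal DNA open, fell from 72.7 ± 3.56 to 32.2 ± 1.97 FPKM (log2 fold change -1.16). TAF1D, a subunit of the polymerase I factor SL1, was the 1 gene that rose, from 89.9 ± 9.62 to 144 ± 45.5 FPKM (log2 fold change 0.63, adjusted p = 0.018). It did not pass with TPM over all transcripts (-0.24, adjusted p = 0.68) or over those of at least 300 bases (0.53, adjusted p = 0.052), and with median-of-ratios scaling 2 of the 82 were higher. Among 23 genes of the RNA exosome and RNase MRP, which trim and cut the precursor, 10 were called lower, against 9.51% of all genes. At an adjusted p of 0.05, 22 were lower, against 30.3% of all genes (median of the 23 genes -0.995, with POP1 at -2.12).

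The cytosolic ribosomal proteins, which these factors assemble onto the rRNA, did not fall with them. None of 79 was called lower, against 9.51% of all genes, and RPL13A was called higher, against 8.76% of all genes. At an adjusted p under 0.05, 1 was lower (RPS26) and 47 were higher, against 30.3% of all genes lower and 25% higher. The median log2 fold change of the 79 was 0.37. RPL3, for example, went from 1081 ± 14.7 to 1992 ± 176 FPKM (log2 fold change 0.88). Their direction depended on scaling, and of the scalings tried only TPM over all transcripts turned it. At an adjusted p under 0.05, TPM over transcripts of at least 300 bases had 47 higher and 3 lower (3603 and 5652 of all 17187 genes). Median-of-ratios scaling had 57 higher and 0 lower (4556 and 4605 of all 16670 genes). With TPM over all transcripts 0 were higher and 3 lower at an adjusted p under 0.05 (2.68% and 44.6% of all genes), RPL13A was not called (0.32, adjusted p = 0.59), and their median was -0.50 where that of all genes was -0.78. Many ribosomal protein genes have near-identical pseudogenes, and their values carry the same uncertainty as NPM1.

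**Figure D5:**
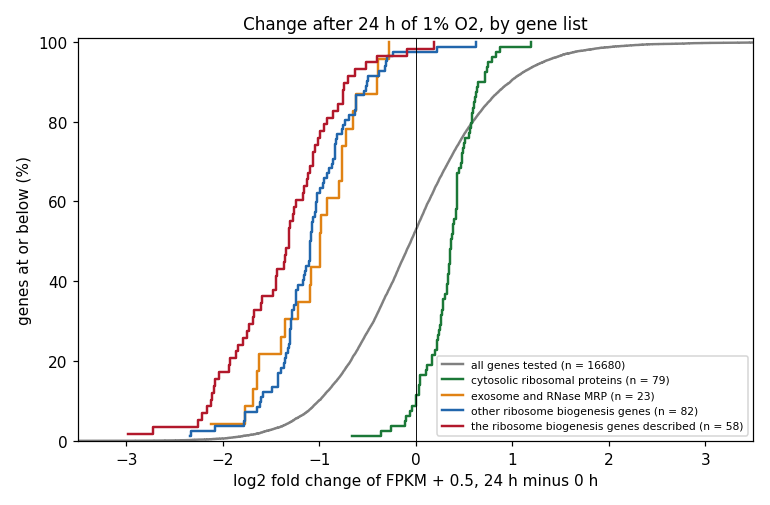
Cumulative share of genes (vertical, %) at or below a log2 fold change of FPKM + 0.5 between 0 h and 24 h (horizontal), for the 58 genes described, 82 further ribosome biogenesis genes, 23 genes of the exosome and RNase MRP, 79 cytosolic ribosomal proteins and all 16680 genes tested. The curves of the first 3 lists lie left of all genes, with medians of -1.31, -1.09 and -0.995, and that of the ribosomal proteins lies right of it, with a median of 0.37.

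MYC itself had 184, 154 and 147 FPKM at 0 h, 131, 122 and 98.5 FPKM at 2 h and 117, 148 and 174 FPKM at 24 h. Its 24 h libraries overlapped with those at 0 h (log2 fold change -0.16, adjusted p = 0.40), and its 2 h libraries lay below them (log2 fold change -0.47, adjusted p = 0.21). Its part in the changes above was not tested.

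Scaling moved the sizes and counts, and the median of the set stayed below that of all genes at 24 h. The deposited FPKM were taken as they are. Rescaled to TPM over all transcripts, 54 genes were called lower at 24 h (27.5% of all genes) and 0 higher (1.44%), and the median was -2.13, in a scaling that put the median of all genes at -0.78 and 95.0% of all calls on the lower side, against 52.0% as deposited. Relative to the median of all genes, the 58 stood at -1.26 as deposited, -1.35 with TPM, -1.28 with TPM when transcripts shorter than 300 bases were left out, and -1.26 with median-of-ratios factors. TPM over all transcripts also changed the counts of the other comparisons. At 2 h 52 of the 58 genes were lower at an adjusted p under 0.05 (61.4% of all genes), with a median of -1.23 where that of all genes was -0.94, and 2 of them were called lower (3.62%) and 0 higher (0.0963%). Between 2 h and 24 h, 8 genes were called lower (0.585% of all genes) and 15 were lower and 0 higher at an adjusted p of 0.05 (1.58% and 6.57%), with a median of -0.87 where that of all genes was 0.12.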

How the data were processed

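The authors aligned strand-specific paired reads of polyadenylated RNA to hg19 (GRCh37), assembled transcripts per sample with Cufflinks, merged them with Ensembl and deposited FPKM per transcript and library; base calling used CASAVA 1.8.2, per the labels. No scaling between libraries beyond FPKM is given in the sources used here. Each line of values held an empty field after the identifier that the header lacks; it was dropped and the 12 values were matched to the 12 library names in order. Of 293768 transcripts, those of class code = (matching a reference) or j (sharing a junction) were summed per gene name. Genes with a sum above 0.5 FPKM in at least 3 libraries (16680) were fitted on log2(FPKM + 0.5) over all 12 libraries with limma 3.58.1 (lmFit and eBayes with trend) in R 4.3.3, two-sided, with Benjamini-Hochberg adjustment over all of them. Tables were made in Python 3.11.15 with pandas 2.3.3, numpy 2.4.6 and matplotlib 3.10.9. Transcript types came from GENCODE release 44 on GRCh37, and promoters from RefSeq on GRCh38.p14, matched by symbol only.

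The genes and lists were chosen with earlier results of these data known. Genes named with full values were 11 set by name and, in each role, the 3 with the largest change at 24 h among those with an adjusted p under 0.01 and the 1 with the smallest; others are named to account for the whole list. The labels number the replicates but do not say that a number marks a shared culture. Deviations of same-numbered libraries correlated at 0.246, 0.129 and 0.362 across genes between 0 h and 2 h. A fit with the replicate number as a block is therefore given beside the unblocked main fit at 2 h. Between 0 h and 24 h only replicate 3 correlated best with its own number (0.242). The p-values measure only the spread between these libraries. The unblocked fits of gene sums and of the noncoding ratio at 24 h were tested on simulated data, and the blocked fit and the other comparisons were not. Of gene sums changed by 1.5 and 2 on the log2 scale, 93.9% and 93.1% were recovered, with 0 false calls. Of ratios changed by 2, 78.5% were recovered, with 6 false calls among 6774 genes. Smaller changes were not simulated. Alternatives covered pseudocount, filters, transcripts summed, scaling, the replicate block and leaving out each library. In 19 genes the Cufflinks locus held other gene names, and 8 transcripts of other classes were not used.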

Additional observations from a re-analysis of the deposited data

How the results depend on the processing

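The 44 genes called lower at 24 h numbered 41 with median-of-ratios scaling to 54 with TPM over all transcripts, 56 with the rule on adjusted p alone, and 42 to 46 when each library was left out, always lower. The 39 called between 2 h and 24 h numbered 34 to 43 with a library left out and 8 with TPM over all transcripts, the cause not tested. None was called at 1 h or 2 h by the fold rule in any setting, 0 to 0 with libraries left out, except 2 at 2 h with TPM over all transcripts, which put 52 under an adjusted p of 0.05 (61.4% of all genes). The median at 24 h was -1.36 with class code = only, -2.13 with TPM over all transcripts, -1.41 with TPM when transcripts shorter than 300 bases were left out, -1.25 with median-of-ratios scaling and -1.38 to -1.25 with libraries left out. The 7 genes with a changed noncoding ratio became 3 with a pseudocount of 0.1, 16 with 1, 1 with only the 6 libraries of the contrast (fewer samples), and 2 to 6 with libraries left out. Of 24 genes named with full values, each under 19 alternatives, 448 values kept direction and the call by the fold rule. At an adjusted p of 0.05, IMP3 was lost in 3 settings that left out a library (0.053 to 0.098), and FBL passed, as lower, with TPM without transcripts under 300 bases (0.048). DKC1 fell under the 2-fold limit 3 times (-0.95 to -0.98), RRN3 passed it 3 times (-1.77 to -1.05) and GNL2 once (-1.55), and NOB1 reversed with TPM over all transcripts (-0.68, adjusted p = 0.22; 0.0195 to 0.384 over its alternatives). Summing coding transcripts only (44 genes called at 24 h) and testing the noncoding ratio on class code = only (6 genes) were chosen after seeing the data.

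With the replicate number as a block, 44 genes were called lower at 24 h, 39 between 2 h and 24 h and 0 at 1 h or 2 h by the fold rule, and 8 had a changed noncoding ratio. NOB1 passed an adjusted p of 0.05 at 24 h, as higher, with the block (0.036), with median-of-ratios scaling (0.019) and with no filter on low values (0.0498). Same-numbered libraries at 0 h and 24 h correlated at -0.000785, 0.00549 and 0.242, against at most 0.172, 0.116 and -0.0875 with other numbers. Only replicate 3 correlated best with its own number, and the labels do not say whether these libraries shared a culture. The FPKM carry no counts, so no counting error is given for a gene.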
